A study of Homo sapiens with 9 samples.

Results

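The genes described here are 34 genes of cholesterol and fatty acid synthesis that the SREBP transcription factors control, together with their regulators and neighbours in sterol transport and efflux. They were chosen by name from this pathway, with earlier results of these data known, and 31 of the 34 were measured, among 22109 genes tested. FDFT1 had no probe set in the gene table used here, and the probe sets of CYP51A1 and FADS1 carried the symbols of several genes, so no value is given for these 3. Of the 31, 29 had a mean level above 3.89, the median level of all genes on the log2 scale, and HSD17B7 and ABCG1 lay below it.

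RNA came from MDA-MB-231, a triple-negative breast cancer cell line from a pleural effusion, grown in high-glucose medium with serum. YM-155 is a small molecule known as a suppressor of survivin (BIRC5) expression. Control cells were untreated, with no time or vehicle given (3 arrays), the 8 h cells were given the drug stepwise to a total of 83 ng/ml (3 arrays), and the 20 h cells received 14.6 ng/ml, the LC50 (median lethal concentration) that the submitters determined (3 arrays). Dose and time differ together between the treated groups and cannot be told apart. The labels do not say that arrays of a group came from separate cultures, so the p-values measure the spread between these arrays, which may be technical.

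SREBPs are transcription factors made as membrane proteins of the endoplasmic reticulum. When sterols are ample, SCAP and the INSIG proteins hold them there. When sterols fall, SCAP carries them to the Golgi, where proteases release the part that enters the nucleus and switches on genes of sterol and fatty acid synthesis. The SREBF2 product acts mainly on cholesterol genes and the SREBF1 products mainly on fatty acid genes. LXR receptors, which bind oxysterols, act on the other arm and switch on genes of sterol efflux.

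The values are log2 array signals, and a change is a difference of group means on that scale. On these arrays all 5 markers of MDA-MB-231 cells were above the median level, as were 5 of 8 luminal and receptor markers, while ESR1, PGR and ESRP1 were below it. No adipocyte marker of 5 was above the median level. Of 6 macrophage and leukocyte markers only CD68 was above it. The mean level of that list ran from 3.66 to 3.76 in control, 3.72 to 3.78 at 8 h and 3.86 to 4.12 at 20 h. None of the 6 was called at 8 h, and 3 (50%) were called higher at 20 h, beside 13.1% of all genes. The hepatocyte list had 1 of 5 above the median level. It ran from 3.00 to 3.16 in control, 3.13 to 3.21 at 8 h and 3.29 to 3.37 at 20 h. None of the 5 was called at 8 h, and 2 (40%) were called higher at 20 h, beside the same 13.1%. The part of these lists in the results below was not tested. Control replicate 3 stood apart from the other controls: the SD of its differences from them was 0.312 and 0.313 over genes above the median level, against 0.187 between controls 1 and 2. Among the 8 h arrays replicate 3 differed most, with SDs of 0.217 and 0.221, against 0.147 between replicates 1 and 2.

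At 20 h, 11 of the 16 sterol synthesis enzymes measured were higher than in control, against 5 at 8 h, with HMGCS1, MSMO1 and IDI1 in front. INSIG1 and MYLIP rose at both times, and fatty acid synthesis genes went both ways at 20 h. At 8 h against control, 11 of the 31 genes (35.5%) were called higher and 2 (6.45%) lower, at a limma adjusted p under 0.05 over all genes. In the same comparison 5.93% of all genes were called higher and 6.28% lower. At 20 h, 19 (61.3%) were called higher and 4 (12.9%) lower, beside 13.1% and 17.2% of all genes. Because the genes were chosen with earlier results of these data known, these shares are not an independent contrast. The median change of the 31 genes was 0.19 at 8 h and 0.56 at 20 h, against -0.00305 and 0.0284 for all genes. Without control replicate 3 the counts were 13 higher and 2 lower at 8 h and 19 higher and 3 lower at 20 h. Over all arrays left out 1 at a time, the higher count ran from 9 to 13 at 8 h and from 17 to 19 at 20 h. It was 9 at 8 h without control replicate 1, and 17 at 20 h without control replicate 2. The comparisons with control share their control arrays. The arrays read RNA of whole cultures, in which a change in the share of cells and a change in RNA per cell cannot be told apart.

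**Figure D1:**
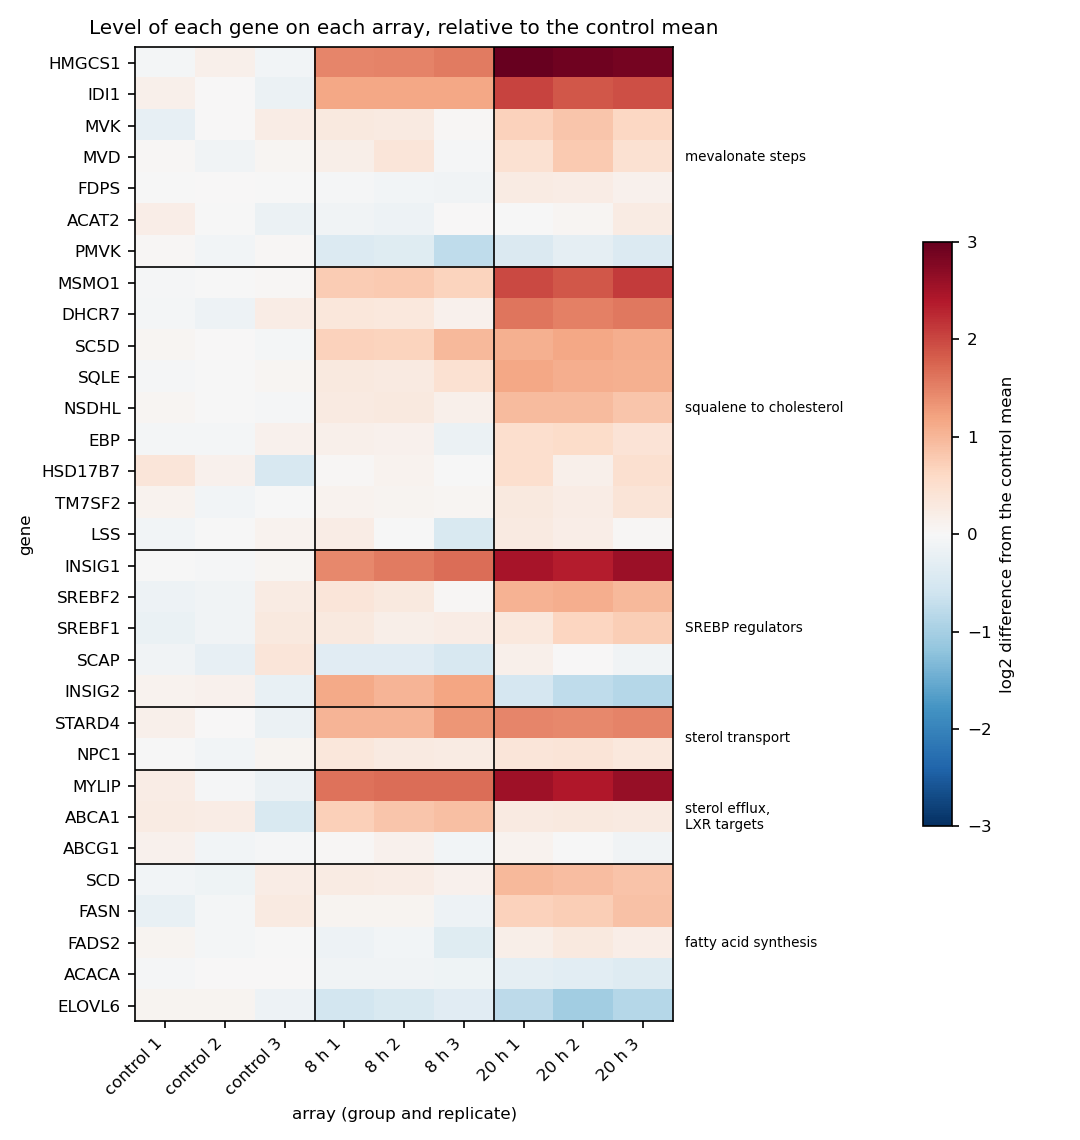
Each row is 1 of the 31 measured genes and each column 1 of the 9 arrays, coloured by the log2 difference from the control mean. HMGCS1, IDI1, INSIG1, STARD4 and MYLIP are above the control arrays on all 6 treated arrays, and INSIG2 is above them at 8 h and below them at 20 h.

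**Figure D2:**
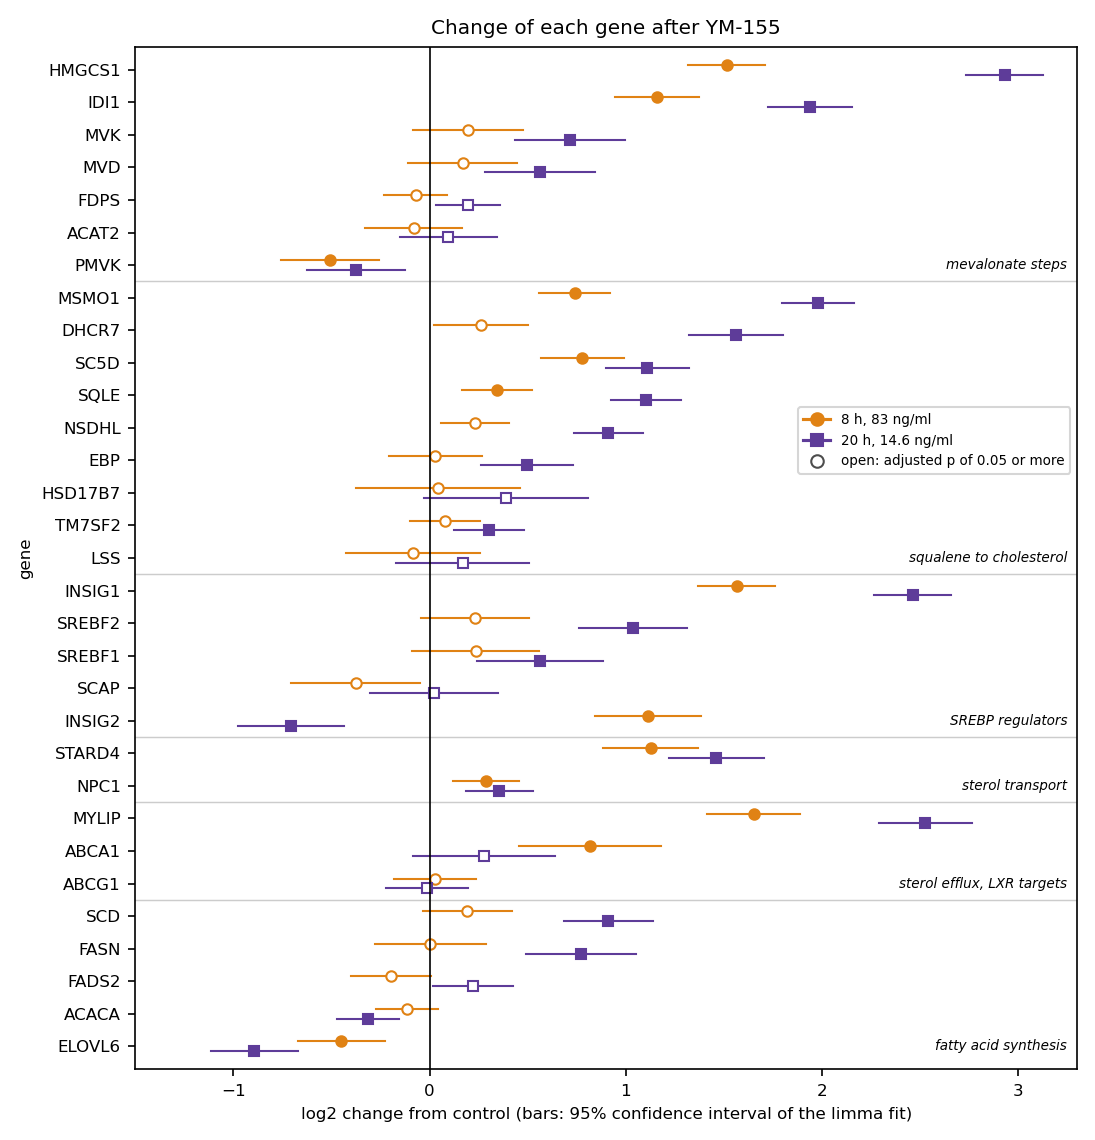
Log2 change from control for the 31 genes at 8 h (circles) and 20 h (squares), with the 95% confidence interval of the limma fit as bars and open symbols where the adjusted p was 0.05 or more. At 20 h the changes run from -0.89 for ELOVL6 to 2.93 for HMGCS1.

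The promoters of 3 genes are shown because these genes were among those that rose and they carry the sequence motifs searched. Each is the 250 bases before the gene's start in RefSeq (GRCh38.p14), written 5′ to 3′ on the gene's strand. Capitals mark the sterol regulatory element core TCACNCCAC, the E box TCACGTGA and the NF-Y motif CCAAT, or its reverse complement, on either strand. SREBF2 was taken by the rule that a gene with a called change hold a sterol regulatory element core, and HMGCS1 and INSIG1 were added after the matches were seen. HMGCS1 had 2 listed promoters, and the one shown was picked by its number of NF-Y and E box matches.
SREBF2, chr22:41832855-41833104, plus strand: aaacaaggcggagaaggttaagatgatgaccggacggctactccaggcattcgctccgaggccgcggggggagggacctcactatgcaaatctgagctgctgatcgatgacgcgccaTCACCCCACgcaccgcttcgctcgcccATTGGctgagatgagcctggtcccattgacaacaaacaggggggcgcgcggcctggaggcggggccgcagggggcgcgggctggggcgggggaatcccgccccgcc
HMGCS1, chr5:43313413-43313662, minus strand: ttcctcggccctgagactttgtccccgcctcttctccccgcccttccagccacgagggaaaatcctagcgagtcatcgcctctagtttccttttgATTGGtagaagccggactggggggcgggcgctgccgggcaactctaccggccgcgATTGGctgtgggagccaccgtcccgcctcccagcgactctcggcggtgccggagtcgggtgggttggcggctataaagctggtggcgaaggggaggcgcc
INSIG1, chr7:155297628-155297877, plus strand: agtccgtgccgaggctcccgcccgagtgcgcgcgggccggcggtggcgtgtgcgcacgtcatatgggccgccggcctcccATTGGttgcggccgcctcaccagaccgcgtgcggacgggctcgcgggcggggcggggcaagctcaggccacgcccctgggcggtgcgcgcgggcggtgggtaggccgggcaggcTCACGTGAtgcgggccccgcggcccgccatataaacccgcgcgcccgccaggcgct
The core in SREBF2 begins at -133 from the start and its NF-Y motif at -106. HMGCS1 holds NF-Y motifs at -155 and -100, and INSIG1 holds one at -170 and the E box at -56. The HMGCS1 and INSIG1 promoters shown do not hold the sterol regulatory element core.

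At least 1 promoter of 300 bases (250 before and 50 after the start) was listed for 27 of the 31 measured genes. None was listed for ABCG1, ACAT2, FASN and SQLE. Some genes had more than 1, such as ACACA and IDI1 with 3 each and HMGCS1 with 2. A gene was counted as holding a motif when any of its listed promoters held it. The shares below therefore depend on the number of promoters per gene, which was not compared between the sets of genes. The sterol regulatory element core TCACNCCAC was found on either strand in 1 of the 27 (3.7%, SREBF2), in 1.39% of all 27305 genes with a promoter and in 1.47% of the 15336 of them tested on the arrays. The E box TCACGTGA was found in 1 of 27 (INSIG1), in 1.18% of all and in 1.61% of those tested. CCAAT was found in 20 of 27 (74.1%), in 39.7% of all and in 41.6% of those tested. Among the 27 it was found in 15 of the 17 genes called higher at 20 h (88.2%) and in 5 of the other 10 (50%). Those 10 include genes called lower and genes not called. The list was chosen with earlier results of these data known and split by its 20 h calls, so this is not an independent contrast. The Sp1 motif GGGCGG was found in 26 of 27 (96.3%), in 48.3% of all and in 63.1% of those tested, and none of the 27 held the LXR direct repeat of AGGTCA spaced by 4 bases, which 0.0256% of all genes and 0.013% of those tested held. The SREBF2 core also matches the narrower TCACCCCAC, found in 0.535% of all genes. These matches are letters in a window and show no binding.

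The mevalonate steps turn acetyl-CoA into isoprenoid units. Of the 7 genes measured, 2 were called higher and 1 lower at 8 h, and 4 higher and 1 lower at 20 h, with median changes of 0.17 and 0.56. Beside this and the groups that follow, 5.93% of all genes were called higher and 6.28% lower at 8 h. At 20 h these shares were 13.1% and 17.2%. HMGCS1, which makes HMG-CoA, read 5.23, 5.44 and 5.20 on the control arrays, 6.77, 6.79 and 6.86 at 8 h and 8.31, 8.21 and 8.15 at 20 h. The 3 groups did not overlap, and the 20 h arrays were the highest. Its change was 1.51 at 8 h (SE 0.0882, 2.86-fold, limma adjusted p = 9.7e-06) and 2.93 at 20 h (7.63-fold, limma adjusted p = 7.4e-08). IDI1, which isomerises isopentenyl diphosphate, read 5.22, 5.08 and 4.88 in control, 6.22, 6.22 and 6.22 at 8 h and 7.09, 6.92 and 6.997 at 20 h, again without overlap. It rose by 1.16 at 8 h (SE 0.0962, limma adjusted p = 6.2e-05) and 1.94 at 20 h (3.84-fold, limma adjusted p = 4.2e-07).

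The kinase MVK rose by 0.71 (SE 0.126, limma adjusted p = 0.0014) and the decarboxylase MVD by 0.56 (SE 0.126, limma adjusted p = 0.0061) at 20 h, and neither was called at 8 h. PMVK, the kinase between them in the pathway, was lower: it read 5.63, 5.52 and 5.64 in control, 5.19, 5.24 and 4.84 at 8 h and 5.16, 5.33 and 5.18 at 20 h. Every treated array lay below every control array, with changes of -0.51 at 8 h (SE 0.112, limma adjusted p = 0.015) and -0.37 at 20 h (limma adjusted p = 0.028). Without control replicate 1 the 8 h call was lost (limma adjusted p = 0.0533). The 20 h call ended when any 1 of 4 arrays was left out, namely control replicate 1 (limma adjusted p = 0.0822), control replicate 3 (0.0699), 20 h replicate 1 (0.0871) and 20 h replicate 3 (0.0826), and after a repeated quantile normalization (0.0545). ACAT2, which joins acetyl-CoA units, changed by -0.08 and 0.10, and FDPS, which makes farnesyl diphosphate, by -0.07 and 0.20, all uncalled against control.

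The steps from squalene to cholesterol showed 3 of 9 genes called higher and none lower at 8 h by limma, and 7 higher and none lower at 20 h, with median changes of 0.23 and 0.91. MSMO1, which removes methyl groups from the sterol ring, read 8.08, 8.12 and 8.16 in control, 8.87, 8.91 and 8.80 at 8 h and 10.09, 9.99 and 10.22 at 20 h. The groups were ordered without overlap. It rose by 0.74 at 8 h (SE 0.0821, limma adjusted p = 0.00036) and 1.98 at 20 h (3.95-fold, limma adjusted p = 1.8e-07). DHCR7, which catalyses the reduction of 7-dehydrocholesterol, read 6.81, 6.71 and 7.09 in control, 7.21, 7.19 and 6.99 at 8 h and 8.47, 8.39 and 8.44 at 20 h. Only the 20 h arrays stood clear of control, with a change of 1.56 (SE 0.108, 2.95-fold, limma adjusted p = 3.1e-06). At 8 h its change was 0.26 (limma adjusted p = 0.17), and 0.37 without control replicate 3 (limma adjusted p = 0.0294).

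SC5D, the desaturase one step earlier, read 7.39, 7.34 and 7.27 in control, 8.02, 8.00 and 8.31 at 8 h and 8.40, 8.48 and 8.43 at 20 h. All 6 treated arrays were above the controls. The changes were 0.78 (SE 0.095, limma adjusted p = 0.00064) and 1.11 (limma adjusted p = 1.3e-05). SQLE, which oxidises squalene, read 6.32, 6.33 and 6.41 in control, 6.65, 6.63 and 6.81 at 8 h and 7.52, 7.43 and 7.42 at 20 h. The groups did not overlap, and the 20 h arrays were the highest. It rose by 0.34 at 8 h (SE 0.0801, limma adjusted p = 0.02) and 1.10 at 20 h (limma adjusted p = 4.2e-06). Leaving out control replicate 1 ended the 8 h call (limma adjusted p = 0.0664), as did leaving out control replicate 2 (0.0625) and, separately, 8 h replicate 3 (0.0663).

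NSDHL, a sterol dehydrogenase of the demethylation steps, read 6.73, 6.68 and 6.64 in control, 6.95, 6.97 and 6.83 at 8 h and 7.63, 7.65 and 7.51 at 20 h. The groups did not overlap, but only the 20 h change of 0.91 (SE 0.0784, limma adjusted p = 1.3e-05) was called; the 8 h change was 0.23 (limma adjusted p = 0.091). At 20 h the sterol isomerase EBP rose by 0.50 (limma adjusted p = 0.0048) and the sterol reductase TM7SF2 by 0.30 (limma adjusted p = 0.016). The TM7SF2 call ended without control replicate 2 (limma adjusted p = 0.0612) and, separately, without 20 h replicate 3 (0.0543). LSS, which closes the sterol rings, changed by -0.08 and 0.17 and HSD17B7, a sterol ketoreductase below the median level, by 0.04 and 0.39, none of them called. The 20 h change of HSD17B7 was 0.56 without control replicate 1 (limma adjusted p = 0.0468) and 0.15 without control replicate 3 (limma adjusted p = 0.439). Over the 16 enzymes of both stretches, 5 were called higher and 1 lower at 8 h (median 0.18) and 11 higher and 1 lower at 20 h (median 0.64). On single arrays, the median difference of the 16 from the control mean was 0.24, 0.27 and 0.05 for 8 h replicates 1, 2 and 3. For the 20 h arrays it was 0.60, 0.81 and 0.55.

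**Figure D3:**
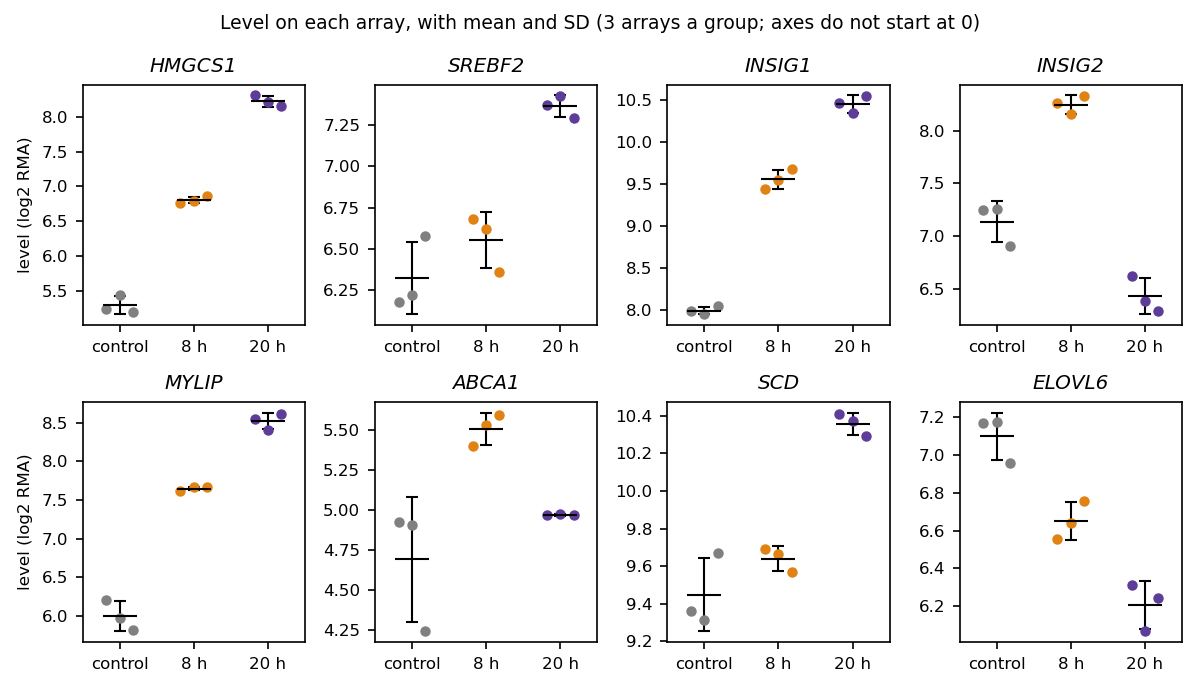
Log2 level on each array (points), with the group mean and SD (n = 3), for HMGCS1, SREBF2, INSIG1, INSIG2, MYLIP, ABCA1, SCD and ELOVL6. INSIG2 is highest at 8 h and lowest at 20 h, and control replicate 3 of ABCA1 is at 4.24, below the other controls.

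Among the regulators, 2 of 5 genes were called higher at 8 h, and 3 higher and 1 lower at 20 h. INSIG1, the retention protein that is itself an SREBP target, read 7.98, 7.95 and 8.04 in control, 9.44, 9.55 and 9.67 at 8 h and 10.46, 10.34 and 10.55 at 20 h. The groups were far apart, with changes of 1.56 (SE 0.0884, 2.96-fold, limma adjusted p = 8.9e-06) and 2.46 (5.51-fold, limma adjusted p = 8.2e-08). INSIG2, its partner with the same retention role, read 7.24, 7.26 and 6.91 in control, 8.26, 8.16 and 8.33 at 8 h and 6.62, 6.38 and 6.28 at 20 h. It was above every control array at 8 h and below every one at 20 h. The changes were 1.11 (SE 0.121, limma adjusted p = 0.0003) and -0.71 (limma adjusted p = 0.0012), and the 20 h arrays were lower than the 8 h arrays by a change of -1.82 (3.53-fold, limma adjusted p = 8.5e-06).

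SREBF2 read 6.18, 6.22 and 6.58 in control, 6.68, 6.62 and 6.36 at 8 h and 7.37, 7.43 and 7.29 at 20 h. The 8 h arrays overlapped the controls, and the 20 h arrays did not. It rose by 1.04 at 20 h (SE 0.124, 2.05-fold, limma adjusted p = 0.00011); at 8 h the change was 0.23 (limma adjusted p = 0.31), 0.36 without control replicate 3 (limma adjusted p = 0.0629) and 0.35 with array weights (limma adjusted p = 0.0366). SREBF1 rose by 0.56 at 20 h (SE 0.144, limma adjusted p = 0.013), and this was no longer called when control replicate 1 was left out (limma adjusted p = 0.056), when control replicate 2 was (0.0525) and when 20 h replicate 3 was (0.0566). SCAP, the sterol-sensing escort, changed by -0.38 at 8 h (limma adjusted p = 0.14) and 0.02 at 20 h (limma adjusted p = 0.93), neither called. Without control replicate 3, which read 6.16 against 5.70 and 5.55 on the other controls, these were -0.20 and 0.20 (limma adjusted p = 0.3 and 0.191).

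SREBF2 and SREBF1 each hold a microRNA in an intron, MIR33A and MIR33B, which are known to repress ABCA1. Their 5′ mature forms are printed from RefSeq (GRCh38.p14) with the seed, bases 2 to 8, in capitals, because both share the seed UGCAUUG.
hsa-miR-33a-5p: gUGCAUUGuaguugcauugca
hsa-miR-33b-5p: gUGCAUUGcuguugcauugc
The probe sets carry the names of the microRNA genes, and mature microRNA was not measured separately. MIR33B read 4.50, 4.72 and 4.95 in control and 5.09, 5.34 and 5.22 at 20 h, a change of 0.49 (SE 0.13, limma adjusted p = 0.015). MIR33A was below the median level on average and changed by -0.07 at 20 h (limma adjusted p = 0.71).

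Both genes of sterol transport within the cell were called higher at both times. STARD4, a soluble carrier of cholesterol, read 7.11, 6.97 and 6.78 in control, 7.98, 7.98 and 8.27 at 8 h and 8.41, 8.38 and 8.45 at 20 h. All treated arrays were above the controls. It rose by 1.13 (SE 0.109, limma adjusted p = 0.00014) and 1.46 (2.75-fold, limma adjusted p = 5e-06). NPC1, which exports cholesterol from lysosomes, read 8.30, 8.22 and 8.40 in control, 8.65, 8.58 and 8.55 at 8 h and 8.67, 8.68 and 8.63 at 20 h. The treated groups overlapped each other and lay just above the controls, with changes of 0.29 (SE 0.0764, limma adjusted p = 0.036) and 0.35 (limma adjusted p = 0.005). The 8 h call of NPC1 ended without control replicate 1 (limma adjusted p = 0.0908), without control replicate 2 (0.119), without any 1 of the 8 h arrays (0.124, 0.0914 and 0.0636 for replicates 1, 2 and 3) and without 20 h replicate 2 (0.0512). It also ended in 5 other settings, with limma adjusted p from 0.0531 to 0.103.

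Of the efflux genes and LXR targets, MYLIP and ABCA1 were called higher at 8 h and MYLIP alone at 20 h. MYLIP, an LXR-induced ubiquitin ligase that marks lipoprotein receptors for degradation, read 6.21, 5.97 and 5.81 in control, 7.62, 7.66 and 7.66 at 8 h and 8.55, 8.40 and 8.62 at 20 h. The groups did not overlap. Its change was 1.65 at 8 h (SE 0.106, 3.14-fold, limma adjusted p = 1.6e-05) and 2.53 at 20 h (5.76-fold, limma adjusted p = 1.8e-07). ABCA1, the exporter that loads cholesterol onto apolipoproteins, read 4.93, 4.91 and 4.24 in control, 5.40, 5.53 and 5.60 at 8 h and 4.97, 4.97 and 4.97 at 20 h. The 8 h arrays were the highest, and the 20 h arrays lay just above the top control. It rose by 0.82 at 8 h (SE 0.162, limma adjusted p = 0.0088), and by 0.59 without control replicate 3 (limma adjusted p = 0.0022). At 20 h its change was 0.28 (limma adjusted p = 0.24), and 0.052 without control replicate 3. ABCG1, a second exporter, was below the median level, with changes of 0.03 and -0.01.

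The 5 fatty acid genes measured did not move together: none was called higher and 1 lower at 8 h (median -0.11), and 2 were called higher and 2 lower at 20 h (median 0.22). SCD, which makes monounsaturated fatty acids, read 9.36, 9.31 and 9.67 in control, 9.69, 9.66 and 9.57 at 8 h and 10.41, 10.37 and 10.29 at 20 h. The 8 h arrays overlapped control and the 20 h arrays stood above. The change was 0.91 at 20 h (SE 0.102, limma adjusted p = 7.6e-05) and 0.19 at 8 h (limma adjusted p = 0.3), or 0.30 without control replicate 3 (limma adjusted p = 0.0376). FASN, the fatty acid synthase, rose by 0.77 at 20 h (SE 0.127, limma adjusted p = 0.00094) and changed by 0.0036 at 8 h.

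ELOVL6, which lengthens saturated and monounsaturated fatty acids, read 7.17, 7.17 and 6.96 in control, 6.55, 6.64 and 6.75 at 8 h and 6.31, 6.07 and 6.24 at 20 h. It was lower in each treated group without overlap. The changes were -0.45 at 8 h (SE 0.0997, limma adjusted p = 0.016) and -0.89 at 20 h (limma adjusted p = 7.2e-05). Its 8 h call ended without control replicate 1 (limma adjusted p = 0.0582), without control replicate 2 (0.0579), without either of 8 h replicates 1 (0.0658) and 2 (0.0529), and with those last 2 arrays counted as 1 (0.0568). ACACA, which makes malonyl-CoA, fell by 0.32 at 20 h (SE 0.071, limma adjusted p = 0.0063). FADS2, a desaturase of polyunsaturated fatty acids, changed by -0.20 and 0.22, neither called against control.

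Between the treated groups, 17 of the 31 genes (54.8%) were called higher at 20 h than at 8 h and 3 (9.68%) lower, where 8.95% of all genes were called higher and 13.6% lower. Leaving out 1 array at a time gave 13 to 18 called higher and 2 to 3 lower. The median difference was 0.40, against 0.0188 for all genes. Of the 16 sterol enzymes, 11 were called higher and none lower by limma, from 0.27 for FDPS to 1.42 for HMGCS1. SREBF2, INSIG1, MYLIP, SCD, FASN and FADS2 were also called higher. The 3 called lower were INSIG2, ABCA1 and ELOVL6. STARD4 (0.33, limma adjusted p = 0.051) and SCAP (0.40, limma adjusted p = 0.08) were not called. STARD4 was called without control replicate 1 (limma adjusted p = 0.0472), control replicate 3 (0.0321) or, alone among treated arrays, 8 h replicate 3 (0.0229), and SCAP without control replicate 3 (limma adjusted p = 0.0132). The ABCA1 difference of -0.54 (limma adjusted p = 0.037) was not called without any 1 of the 6 treated arrays, with limma adjusted p from 0.0596 to 0.12.

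Further genes of these pathways were counted in lists by function. Beside each list, 5.93% of all genes were called higher and 6.28% lower at 8 h, and 13.1% and 17.2% at 20 h. Of 9 genes of SREBP processing and turnover, none was called higher and 2 lower at 8 h, and none higher and 4 lower at 20 h. MBTPS2, the protease of the second SREBP cut, fell by 1.18 at 20 h (SE 0.106, limma adjusted p = 1.7e-05), while MBTPS1, the protease of the first cut, changed by -0.0013. FAF2, which helps extract proteins from the endoplasmic reticulum, fell by 0.59 at 8 h and 0.88 at 20 h, and ERLIN1 and ERLIN2, which bind the retention complex, by 0.85 and 0.48 at 20 h. Of 13 genes of the isoprenoid branches that draw on the mevalonate pathway, 5 were called lower at 8 h, and 9 lower and 1 higher at 20 h. DOLK, which phosphorylates dolichol, fell by 0.90 at 8 h (SE 0.159, limma adjusted p = 0.0048) and 0.74 at 20 h. ICMT and ZMPSTE24, which process prenylated proteins, fell by 0.95 and 0.85 at 20 h, and PDSS1 and COQ2, of coenzyme Q synthesis, by 0.93 and 0.90. RCE1, another enzyme of prenylated proteins and named because it was the 1 gene called higher, rose by 0.45 (limma adjusted p = 0.008).

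Of 9 genes listed under acetyl-CoA and citrate supply, a list that also holds TMEM97, a sterol-responsive membrane protein with another function, 2 were called lower at 8 h, and 2 higher and 3 lower at 20 h. ACSS2, which makes acetyl-CoA from acetate, rose by 0.58 (SE 0.133, limma adjusted p = 0.007) and the malic enzyme ME1 by 0.29 at 20 h. The genes called lower at 8 h were TMEM97, which fell by 0.51, and ACLY, which makes acetyl-CoA from citrate and fell by 0.40. At 20 h they were TMEM97 (fell by 0.43), the citrate synthase CS (fell by 0.29) and PDHA1, a subunit of pyruvate dehydrogenase (fell by 0.25). The 10 LXR receptors and further LXR targets had 1 called lower at 8 h, and 2 higher and 1 lower at 20 h. That is 10% lower at 8 h, beside 6.28% of all genes. At 20 h it is 20% higher and 10% lower, beside 13.1% and 17.2%. APOE, a lipid-carrying apolipoprotein, rose by 0.82 (limma adjusted p = 0.00039) and PLTP, a phospholipid transfer protein, by 0.76 (limma adjusted p = 0.0014) at 20 h. LPCAT3, which remodels phospholipids, fell by 0.27 at 8 h and 0.84 at 20 h.

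Of 12 genes of sterol esters and lysosomal sterol, 1 was called higher at 8 h and 3 at 20 h, with none lower by limma at either time. OSBP, an oxysterol-binding lipid exchanger, rose by 0.37 at 20 h and SOAT2, which esterifies cholesterol, by 0.27, with means of 2.75 in control and 3.02 at 20 h that are both below the median level. CH25H, which makes 25-hydroxycholesterol, had means of 2.62 in control and 3.54 at 8 h, both below the median level. At 20 h its mean was 4.22. It rose by 0.92 at 8 h (SE 0.178, limma adjusted p = 0.0076) and 1.61 at 20 h (limma adjusted p = 6.7e-05). Of 24 genes of fatty acid elongation, activation and related lipid steps, 1 was called higher and 1 lower at 8 h, and 2 higher and 10 lower at 20 h. LPIN1, a phosphatidate phosphatase, rose by 0.53 at 8 h and 1.01 at 20 h, and MID1IP1, which promotes acetyl-CoA carboxylase activity, by 1.00 at 20 h. ELOVL7, another elongase, fell by 1.16 and MECR, of mitochondrial fatty acid synthesis, by 0.85 at 20 h.

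**Figure D4:**
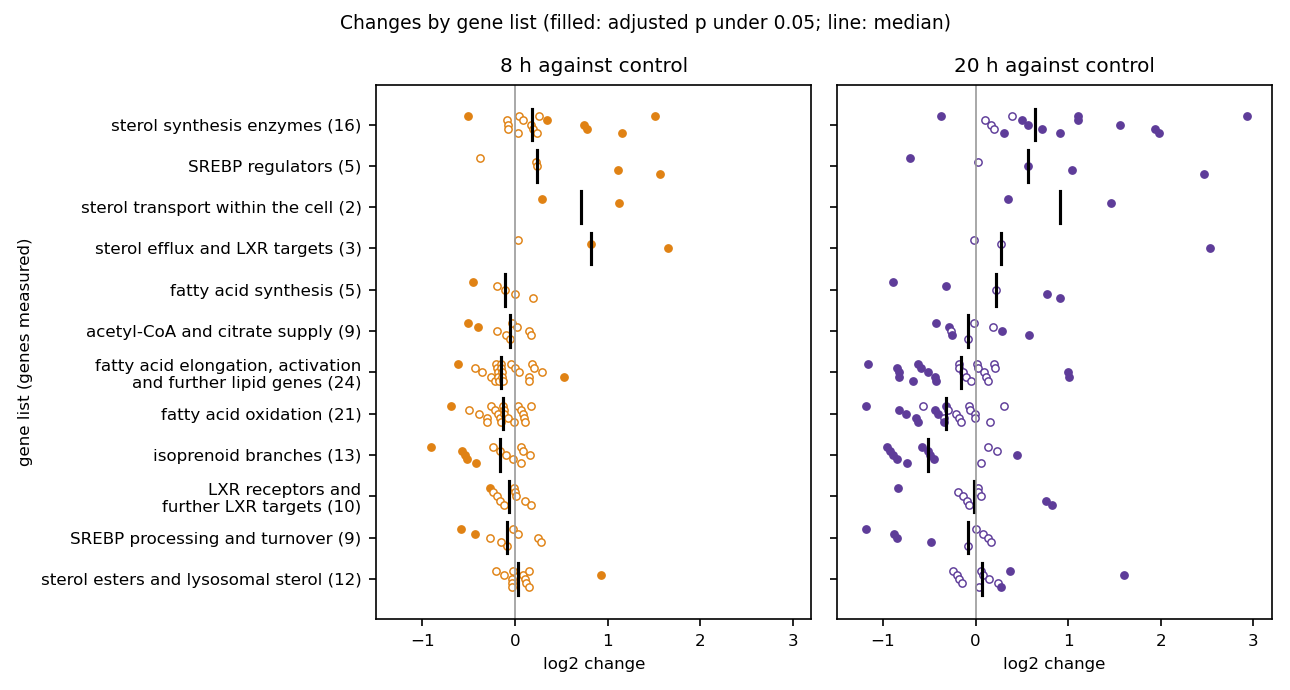
Log2 change from control for each gene of each list at 8 h and 20 h, with a line at the list median. Filled points were called (limma adjusted p under 0.05), and at 20 h the median is 0.64 for the 16 sterol synthesis enzymes and -0.52 for the 13 genes of the isoprenoid branches.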

How the data were processed

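The data are 9 Affymetrix whole-transcript arrays of RNA, 3 in each of 3 groups. Per the submitters' processing notes, the authors used RMA in Affymetrix Expression Console; the deposited values are on a log2 scale, 1 for each of 53617 probe sets. Versions and a genome build are not given in the sources used here. Arrays hold no read depth, and their number limits the precision.

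Of the probe sets, 23558 carried 1 symbol; 2155 carried several and 27904 were unlisted, and both were left out. The brightest probe set of a gene was kept, which gave 22109 genes, and each of the 31 genes reported had only 1. No filter was applied. Group means were fitted to all 9 arrays with limma 3.58.1 in R 4.3.3 (lmFit, eBayes; 6 residual and 4.01 prior degrees of freedom), two-sided, with Benjamini-Hochberg adjustment over all genes and a threshold of 0.05. An exact test of 3 arrays against 3 cannot go below 0.1. The script was tested on simulated data. Per role group, genes called in any comparison with an absolute log2 change of at least 0.8 are described in full, filled up to 2 genes by the smallest adjusted p; each further list names up to 4 called genes with the largest change per comparison with control. RCE1, MBTPS1 and PDHA1 were named after their values were seen. Members and lists were chosen with earlier results of these data known. In all, 19 alternatives were run. Promoters and microRNAs came from RefSeq (GRCh38.p14).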

Additional observations from a re-analysis of the deposited data

Results flagged for a closer look

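For 20 of the 31 genes the change at 20 h differed from the change at 8 h in the limma test of 20 h against 8 h over all genes. Of the 31, 54.8% were called higher and 9.68% lower, beside 8.95% and 13.6% of all genes. Dose and time differ together between the 8 h and 20 h groups. The difference of the log2 changes (20 h minus 8 h) was 1.42 for HMGCS1, 0.78 for IDI1, 0.52 for MVK, 0.40 for MVD and 0.27 for FDPS among the mevalonate steps. From squalene to cholesterol it was 1.30 for DHCR7, 1.24 for MSMO1, 0.76 for SQLE, 0.68 for NSDHL, 0.47 for EBP and 0.33 for SC5D. For the regulators INSIG1 and SREBF2 it was 0.90 and 0.81, and for MYLIP 0.87. For the fatty acid genes FASN, SCD and FADS2 it was 0.77, 0.72 and 0.42.

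For INSIG2 the difference was -1.82, with a rise of 1.11 at 8 h and a change of -0.71 at 20 h, and all arrays of each group lay on their own side of the controls. For ABCA1 it was -0.54 and for ELOVL6 -0.44. Some of these calls were lost when 1 array was left out, by limma adjusted p. MVK lost its call without 8 h replicate 3 (0.0583) and without 20 h replicate 2 (0.0548). FDPS lost it without 8 h replicates 2 (0.0665) or 3 (0.0697) and without 20 h replicates 1 (0.0666) or 2 (0.0644). SC5D lost it without 8 h replicates 1 (0.107) or 2 (0.11) and without any 1 of the 20 h arrays (0.0562 to 0.0906). MVD lost it without any 1 of 8 arrays, all but 8 h replicate 2 (0.0544 to 0.165), and ABCA1 without any 1 of the treated arrays (0.0596 to 0.12). The MVD difference itself stayed at 0.40 when a control array was left out. Other settings ended calls too, by limma adjusted p. With 8 h replicates 1 and 2 counted as 1, MVD (0.0545), FDPS (0.0528), SC5D (0.105) and ABCA1 (0.0738) lost theirs. MVD also lost it with arrays centred on their medians (0.0541), only the 2 groups compared (0.0809) and trended and robust variance (0.0511). ABCA1 also lost it with repeated quantile normalization (0.0802).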

How the results depend on the processing

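The 31 genes had 56 called changes over the 3 comparisons, and 44 kept their call in all 19 alternatives; 12 lost it in at least 1, and none of the 56 changed sign. Of the 37 changes not called, 11 were called in at least 1 alternative and 9 changed sign. The lower genes at 8 h (2 genes) came to 1 with 8 h replicates 1 and 2 counted as 1, and to between 0 and 2 when 1 array was left out. The deviations of same-numbered arrays from their group means had correlations from -0.318 to 0.111. The labels do not say whether the numbers pair the arrays, and with 3 arrays a group these correlations cannot decide it. With the replicate block 52 called changes were kept and 4 lost: NPC1 at 8 h and MVD, SC5D and ABCA1 between treated groups. Repeated quantile normalization moved the split of all genes at 8 h from 1310 higher and 1388 lower to 1143 and 1868. The changes that turned sign were all uncalled. With array weights, LSS at 8 h was 0.051 and HSD17B7 at 8 h -0.091. With repeated quantile normalization, EBP at 8 h was -0.038 and FASN at 8 h -0.076. With arrays centred on their medians, FASN at 8 h was -0.021 and SCAP at 20 h -0.025. With 8 h replicates 1 and 2 counted as 1, EBP was -0.025, FASN -0.037 and ABCG1 -1.8e-05 at 8 h. Leaving out 1 array at a time gave 8 h changes from -0.16 to 0.014 for ACAT2, -0.23 to 0.11 for LSS, -0.20 to 0.22 for HSD17B7, -0.030 to 0.14 for EBP, -0.022 to 0.089 for ABCG1 and -0.10 to 0.13 for FASN. At 20 h it gave -0.11 to 0.20 for SCAP and -0.067 to 0.049 for ABCG1, and between treated groups -0.095 to 0.0095 for ABCG1. The cause was not tested.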

Other observations

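Fatty acid oxidation breaks down what the fatty acid genes build. Of its 21 genes measured, none was called higher and 1 lower at 8 h, and none higher and 9 lower at 20 h by limma (42.9%, beside 17.2% of all genes), with a median change of -0.32 at 20 h against 0.0284 for all genes. ACADM, a dehydrogenase of medium-chain fatty acids, fell by 1.19 at 20 h (SE 0.103, limma adjusted p = 1.4e-05). SLC25A20, which carries acylcarnitines into mitochondria, fell by 0.70 at 8 h and 0.82 at 20 h, and HADH and ACAA2, of later steps of the cycle, fell by 0.75 and 0.64 at 20 h.

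Any 2 arrays gave exactly the same value for between 3.07% and 7.35% of the genes, and the highest share was between 8 h replicates 1 and 2, whose differences also had the smallest SD (0.147). IDI1, FDPS, STARD4, MYLIP and ACACA each had 1 such tie within a group.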
